A study of Homo sapiens with 9 samples.

Results

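Actin cytoskeleton and focal adhesion genes were examined in HCT116 cells, a human colorectal carcinoma line, of 3 lines that differ in HUWE1, a ubiquitin ligase of the HECT family. The set holds 46 genes, all of which were found by symbol among the 11350 genes of the counts table. It was chosen by function around PALLD, which encodes palladin and was itself selected on its low value in HUWE1-CS cells, to see how other actin genes of the kind controlled by the transcription factor SRF behaved. PALLD is therefore described without a test in every comparison that uses HUWE1-CS cells, and the other 45 members were tested there as single genes. RNA-seq was compared between parental cells (HUWE1-P), HUWE1-WT cells, in which the catalytic cysteine of the endogenous protein was replaced by cysteine again, and HUWE1-CS cells, in which it was replaced by serine. There were 3 libraries per line and 9 in all, from cells without any treatment. Both edited lines carry a repair cassette with P2A and blasticidin resistance sequences that the parental cells lack, and they were grown from single cells after puromycin and blasticidin selection. Whether the 3 libraries of a line came from 1 clone or several is not stated, so that p-values measure the spread between these libraries, and clonal differences and the mutation cannot be told apart.

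As background, actin monomers assemble into filaments that are stabilized by tropomyosins, crosslinked by actinins and filamins, pulled by non-muscle myosin II and anchored to the matrix at focal adhesions. Monomeric actin holds the cofactors of SRF, the MRTF proteins, out of action, and when filaments grow the released cofactors switch on SRF, which binds CArG boxes in the promoters of many actin genes.

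CArG boxes were looked for in the RefSeq promoter windows of GRCh38.p14, which span 250 bases before to 50 after each annotated start. The box reads the same in form on both strands, so each match counts for both, and a gene with several matches was counted once. Of the 44 members with a window, 7 held a box, or 15.9%, against 1.6% of 27305 genes in the whole promoter table and 1.47% of 9041 genes of the counts table. ACTB and MYL9 had no window, so their promoters were not searched. The members were chosen by function, and the set includes genes known as SRF targets, so this share describes the choice. PALLD had 3 windows and 0 of them held a box. The stretches that contain the boxes are shown because they are the sequence by which the members can be set beside the SRF question, with the box in capitals, 5′ to 3′ along the gene.
ACTG1 (chr17:81512859-81512918, minus strand): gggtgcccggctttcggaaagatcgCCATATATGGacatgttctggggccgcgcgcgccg
TPM4 (chr19:16067340-16067399, plus strand): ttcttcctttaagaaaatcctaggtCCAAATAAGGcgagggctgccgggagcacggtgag
FLNA (chrX:154374694-154374753, minus strand): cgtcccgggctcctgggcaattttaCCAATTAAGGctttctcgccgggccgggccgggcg
CNN2 (chr19:1026494-1026553, plus strand): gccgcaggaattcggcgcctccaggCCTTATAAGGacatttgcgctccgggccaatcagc
ACTN1 (chr14:68977703-68977762, minus strand): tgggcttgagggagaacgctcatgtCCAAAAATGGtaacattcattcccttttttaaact
ROCK2 (chr2:11345476-11345535, minus strand): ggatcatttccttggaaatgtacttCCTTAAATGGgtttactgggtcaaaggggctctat
SRF (chr6:43171214-43171268, plus strand): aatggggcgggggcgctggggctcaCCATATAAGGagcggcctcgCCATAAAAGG
The box began 94 bases before the start in ACTG1 and FLNA, 89 in CNN2, 173 in TPM4, 171 in ACTN1 and 73 in ROCK2, and the 2 boxes of SRF began 30 and 10 bases before it. A match of letters is not a site shown to be bound, and boxes outside the windows or with inexact letters were not looked for.

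Each library held 1610984 to 2060349 counts. Levels are given as CPM, the counts scaled by library total and TMM factor, and 3 counts equal 1.45 to 1.86 CPM. Replicates differed by more than sampling noise in every pair, with a chi-square per degree of freedom of 1.16 to 1.65. The edited gene itself lay at 522 to 561 CPM in HUWE1-P, 453 to 498 in HUWE1-WT and 323 to 345 in HUWE1-CS libraries. It was called lower in HUWE1-CS against HUWE1-P (-0.69) and against HUWE1-WT (-0.48). Counts per gene do not show the exchanged codon, so the level of HUWE1 does not check the labels. Of 9 colon epithelial markers 6 were in the table, with a sum of 4115 to 4532 CPM in control and 3670 to 4043 in HUWE1-CS libraries. KRT8 and KRT18 were called lower in HUWE1-CS (-0.32 and -0.30 against HUWE1-P) and EPCAM and CDH1 higher (0.28 and 0.53), in both comparisons, and KRT19 and CDX2 did not pass. Of 11 fibroblast and smooth muscle markers only COL1A1 was in the table, at 18.0 to 25.6 CPM in controls and 8.71 to 14.8 in HUWE1-CS, and of 5 leukocyte markers 0 were. Many members are abundant in fibroblasts and muscle, but the other 10 markers of those cells, DES and MYH11 among them, were not analysed here, and the part of other cell types in the results was not tested. In such RNA from whole cultures, fewer cells of a kind and less RNA per cell cannot be told apart.

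HUWE1-CS cells were compared with HUWE1-P cells to see which members follow the catalytic mutation. Of the 45 members other than PALLD, 22 were lower in HUWE1-CS than in HUWE1-P cells, 3 were higher and 20 did not pass the test (edgeR's quasi-likelihood test, Benjamini-Hochberg adjusted p and p at most 0.01 over all 11350 genes). Over all genes 8.58% were called lower and 8.46% higher, and over the 2407 genes with a mean of at least 100 CPM, the range of most members, 14.8% were called lower and 18.1% higher. The median log2 fold change was -0.37 for the members and -0.01 for all genes. Against HUWE1-WT cells 23 members were lower, 3 were higher and 19 did not pass, where all genes gave 8.08% lower and 7.42% higher, and the median of the members was -0.33. The 2 comparisons share the HUWE1-CS libraries. Called against both controls in the same direction were 22 members as lower and 3 as higher, beside 6.22% and 6.01% of all genes. The HUWE1-CS libraries lay below all 6 control libraries for 25 members, above them for 4, and overlapped them for 16, where 13.4% of all genes lay below and 12.9% above. Because the members were chosen with results of these data known, these counts describe the set. On the CPM scale, with library totals scaled by the TMM factor, the 46 members, PALLD included, came to 1.99% to 2.05% in HUWE1-P libraries. They came to 2.01% to 2.03% in HUWE1-WT and to 1.62% to 1.64% in HUWE1-CS libraries.

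**Figure D1:**
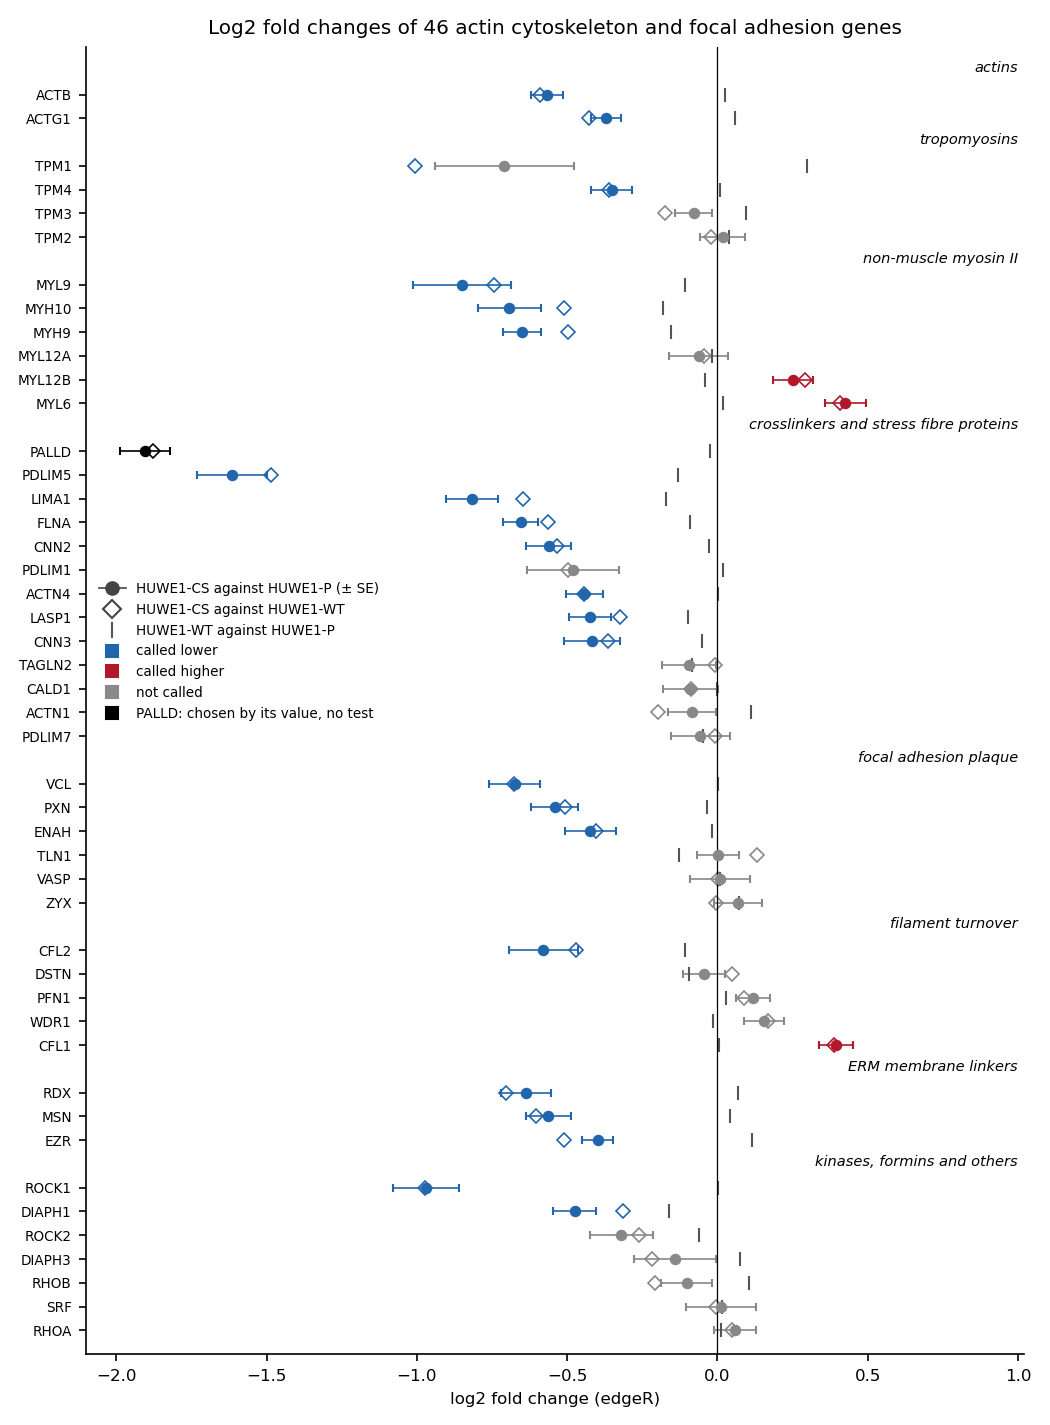
Log2 fold change of each of the 46 members (x axis), grouped by role, for HUWE1-CS against HUWE1-P (circles, bars ± SE), HUWE1-CS against HUWE1-WT (diamonds) and HUWE1-WT against HUWE1-P (ticks), with 3 libraries per line. Blue marks the 22 members called lower against HUWE1-P and red the 3 called higher, with the diamonds coloured by their own comparison, while the ticks lie between -0.18 and 0.30.

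PALLD encodes palladin, a scaffold of stress fibres that binds actinin and is named here first because the set was built around it. The gene lies at chr4:169418203-169849608 on the plus strand of GRCh37, the build of the files, and its canonical transcript in GENCODE has 22 exons and 5858 bases. Its level was 323, 321 and 318 CPM in the HUWE1-P libraries, 336, 315 and 293 in HUWE1-WT and 90.8, 82.2 and 83.6 in HUWE1-CS. All 3 HUWE1-CS libraries lay far below the controls, which overlapped each other. The log2 fold change was -1.91 ± 0.08 (SE) against HUWE1-P and -1.88 ± 0.08 against HUWE1-WT, 3.75-fold lower in the first case, and PALLD ranked 39 from the lowest of all 11350 genes against HUWE1-P. These values chose the gene. The comparison of HUWE1-WT with HUWE1-P, which the choice did not use, gave -0.03 ± 0.07 (adjusted p = 0.99).

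Both cytoplasmic actins fell. Beta-actin, ACTB (chr7:5566040-5603533, GRCh37, minus strand), lay at 2475, 2333 and 2388 CPM in HUWE1-P, at 2390, 2471 and 2457 in HUWE1-WT and at 1539, 1690 and 1625 in HUWE1-CS libraries. Its log2 fold change was -0.57 ± 0.05 against HUWE1-P (adjusted p = 3.8e-16) and -0.59 ± 0.05 against HUWE1-WT. ACTG1, gamma-actin, lay at 3371 to 3625 CPM in the 6 controls and at 2582, 2613 and 2691 CPM in HUWE1-CS, a log2 fold change of -0.37 ± 0.05 against HUWE1-P (adjusted p = 2.3e-09). On a scale per kilobase of transcript, which allows genes to be compared, the highest members in HUWE1-P were ACTG1 at 1770, PFN1 at 1493, ACTB at 1324 and CFL1 at 720 CPM per kb. The actins are near-identical in coding sequence and have many pseudogene copies, so their single counts are uncertain. Of the 4 tropomyosins, which wind along the filament and stabilize it, TPM4 was lower in both comparisons (-0.35 ± 0.07 against HUWE1-P, adjusted p = 2.0e-05). TPM1 was sparse, at 20.2 to 30.1 CPM in controls and 7.37 to 16.3 in HUWE1-CS, and was called only against HUWE1-WT (-1.01 ± 0.22, adjusted p = 2.4e-04), with -0.71 ± 0.23 against HUWE1-P (adjusted p = 0.015). The first call was lost without HUWE1-CS replicate 2 (-0.71, adjusted p = 0.0184), and TPM1 was called against HUWE1-P without HUWE1-CS replicate 3 (-0.88, adjusted p = 0.0099). TPM2 and TPM3 did not pass, at 0.02 and -0.08.

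Non-muscle myosin II is built of heavy chains, essential light chains and regulatory light chains, and its subunits did not move together. The heavy chain MYH9 lay at 700, 675 and 774 CPM in HUWE1-P, 670, 612 and 652 in HUWE1-WT and 468, 441 and 462 in HUWE1-CS (-0.65 ± 0.06 against HUWE1-P, adjusted p = 3.0e-15). The second heavy chain, MYH10, fell by 0.69 on the log2 scale (adjusted p = 7.4e-08), with 67.1 to 73.7 CPM in HUWE1-CS and 93.3 to 118 CPM in the controls. The regulatory light chain MYL9 lay at 37.9, 62.3 and 50.6 CPM in HUWE1-P and at 32.0, 30.1 and 22.1 in HUWE1-CS (-0.85 ± 0.16, adjusted p = 1.7e-05). Each of these 3 was also lower against HUWE1-WT, where the call of MYL9 (-0.74, adjusted p = 2.8e-04) was lost without HUWE1-CS replicate 3 (-0.59, adjusted p = 0.0107). The essential light chain MYL6 rose, from 256, 266 and 253 CPM in HUWE1-P and 247, 275 and 263 in HUWE1-WT to 332, 368 and 342 in HUWE1-CS (0.43 ± 0.07 against HUWE1-P, adjusted p = 4.0e-07). Of the other regulatory light chains, MYL12B rose by 0.25 ± 0.07 (adjusted p = 0.0026) and MYL12A was at -0.06 ± 0.10 (adjusted p = 0.70). MYL12A and MYL12B are near-identical copies that could share reads, and the call of MYL12B was lost without HUWE1-CS replicate 1 (adjusted p = 0.0268), HUWE1-P replicate 2 (adjusted p = 0.0159) or HUWE1-P replicate 3 (adjusted p = 0.0142).

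Among the 12 crosslinkers and stress fibre proteins other than PALLD, 7 were lower against both controls and 0 were higher. Of all genes 6.22% were lower and 6.01% higher against both. PDLIM5, a PDZ and LIM domain protein that binds actinin, changed most of the tested members. It lies at chr4:95373008-95589378 (GRCh37, plus strand) with a canonical transcript of 13 exons. Its level was 125, 139 and 143 CPM in HUWE1-P, 128, 109 and 138 in HUWE1-WT and 37.4, 42.5 and 53.4 in HUWE1-CS, with no overlap. The log2 fold change was -1.61 ± 0.12 against HUWE1-P (95% confidence interval -1.84 to -1.39, adjusted p = 3.7e-22) and -1.48 ± 0.12 against HUWE1-WT (adjusted p = 2.2e-19). Filamin A, FLNA, which joins filaments into a network, lay at 1189, 1161 and 1200 CPM in HUWE1-P, at 1209, 1023 and 1100 in HUWE1-WT and at 771, 761 and 721 in HUWE1-CS (-0.66 ± 0.06 against HUWE1-P, adjusted p = 6.9e-17). LIMA1, or EPLIN, which bundles filaments and slows their disassembly, fell from 198 to 216 CPM in HUWE1-P to 105 to 132 CPM in HUWE1-CS (-0.82 ± 0.09, adjusted p = 1.3e-13). ACTN4 fell by 0.44, LASP1 by 0.42, CNN2 by 0.56 and CNN3 by 0.42 on the log2 scale, with adjusted p between 1.4e-09 and 2.7e-04. The call of CNN3 against HUWE1-WT (-0.36, adjusted p = 0.0020) was lost without HUWE1-CS replicate 2 (adjusted p = 0.0168) or HUWE1-WT replicate 2 (adjusted p = 0.0268). The actinin paralog ACTN1 differed little, at 193 to 248 CPM in controls and 180 to 222 CPM in HUWE1-CS (-0.08 ± 0.08, adjusted p = 0.48). PDLIM7, another PDZ and LIM domain protein, was at -0.06 ± 0.10 and PDLIM1 at -0.48 ± 0.15 (adjusted p = 0.013), which was called without HUWE1-P replicate 2 (-0.57, adjusted p = 0.0060). Against HUWE1-WT PDLIM1 was at -0.50 (adjusted p = 0.0103), and was called there without HUWE1-P replicate 1 or 2 or HUWE1-WT replicate 3 (adjusted p = 0.0090, 0.0093 and 0.0068). Several other settings, listed with the alternatives below, also called PDLIM1 lower. CALD1 and TAGLN2, both binders of actin filaments, were at -0.09 each.

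In the focal adhesion plaque, which ties filaments to integrins, 3 of 6 members were lower in both comparisons, beside 6.22% of all genes. Vinculin, VCL, which reinforces the link under tension, lay at 215, 218 and 218 CPM in HUWE1-P, 210, 217 and 226 in HUWE1-WT and 141, 112 and 156 in HUWE1-CS (-0.68 ± 0.08 against HUWE1-P, adjusted p = 1.6e-10). Paxillin, PXN, an adaptor, was at 208 to 231 CPM in controls and 138 to 165 CPM in HUWE1-CS (-0.54 ± 0.08, adjusted p = 3.5e-08). ENAH, an actin polymerase at the leading edge, fell by 0.42 (adjusted p = 3.3e-05). Talin, TLN1, which activates integrins and recruits vinculin, was at 317, 300 and 328 CPM in HUWE1-P and at 320, 304 and 325 CPM in HUWE1-CS, and the interval of its log2 fold change ran from -0.13 to 0.14. For ZYX, a sensor of strain in stress fibres, it ran from -0.09 to 0.23, and for VASP, the ENAH paralog, from -0.19 to 0.21.

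Factors of filament turnover went both ways. Cofilin-1, CFL1, the main severing protein of non-muscle cells, rose from 912, 914 and 865 CPM in HUWE1-P and 861, 952 and 884 in HUWE1-WT to 1140, 1251 and 1143 in HUWE1-CS (0.39 ± 0.06 against HUWE1-P, adjusted p = 2.4e-08). Its paralog CFL2 fell, from 87.5, 92.6 and 88.7 CPM in HUWE1-P to 61.7, 52.7 and 65.6 in HUWE1-CS (-0.58 ± 0.11, adjusted p = 2.9e-05). Against HUWE1-WT the call of CFL2 (-0.47, adjusted p = 0.0010) was lost without HUWE1-CS replicate 2 (adjusted p = 0.022). Profilin, PFN1, which feeds monomers to growing ends, was at 0.12 ± 0.06 (adjusted p = 0.12), and the severing factor DSTN at -0.04 ± 0.07. For WDR1, which helps cofilin to take filaments apart, the HUWE1-CS libraries at 379 to 382 CPM lay above all controls at 315 to 366 CPM, but the test was not passed (0.15 ± 0.07, adjusted p = 0.075).

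The ERM proteins, which link filaments to the plasma membrane, fell against both controls in 3 of 3 cases, beside 6.22% of all genes. Ezrin, EZR, the family member with the highest level per kilobase here, lay at 2020, 1912 and 1984 CPM in HUWE1-P, 2131, 2107 and 2161 in HUWE1-WT and 1466, 1453 and 1567 in HUWE1-CS (-0.40 ± 0.05 against HUWE1-P, adjusted p = 1.4e-09; -0.51 ± 0.05 against HUWE1-WT, adjusted p = 8.5e-14). Moesin, MSN, fell by 0.56 and radixin, RDX, by 0.64 on the log2 scale against HUWE1-P (adjusted p = 2.3e-09 and 1.0e-09). The HUWE1-CS libraries lay below every control library for all 3 genes, as they did for 13.4% of all genes.

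Kinases and formins that act on filaments were read with SRF. The kinase ROCK1 (chr18:18524573-18691774, GRCh37, minus strand), which activates myosin II, lay at 121, 102 and 115 CPM in HUWE1-P, 110, 111 and 118 in HUWE1-WT and 54.6, 59.0 and 58.6 in HUWE1-CS (-0.97 ± 0.11 against HUWE1-P, adjusted p = 3.7e-12). The formin DIAPH1, which elongates filaments, fell by 0.48 (adjusted p = 3.5e-08). ROCK2 was at -0.32 ± 0.10 (adjusted p = 0.015) and was called without HUWE1-CS replicate 3 (-0.40, adjusted p = 0.0070), and DIAPH3, RHOB and RHOA at -0.14, -0.10 and 0.06. SRF lay at 75.7, 73.0 and 68.4 CPM in HUWE1-P, at 63.7, 75.8 and 79.1 in HUWE1-WT and at 74.2, 76.6 and 67.4 in HUWE1-CS, so that all 3 lines overlapped. Its log2 fold change against HUWE1-P was 0.01, with an interval of -0.22 to 0.24 (adjusted p = 0.96).

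**Figure D2:**
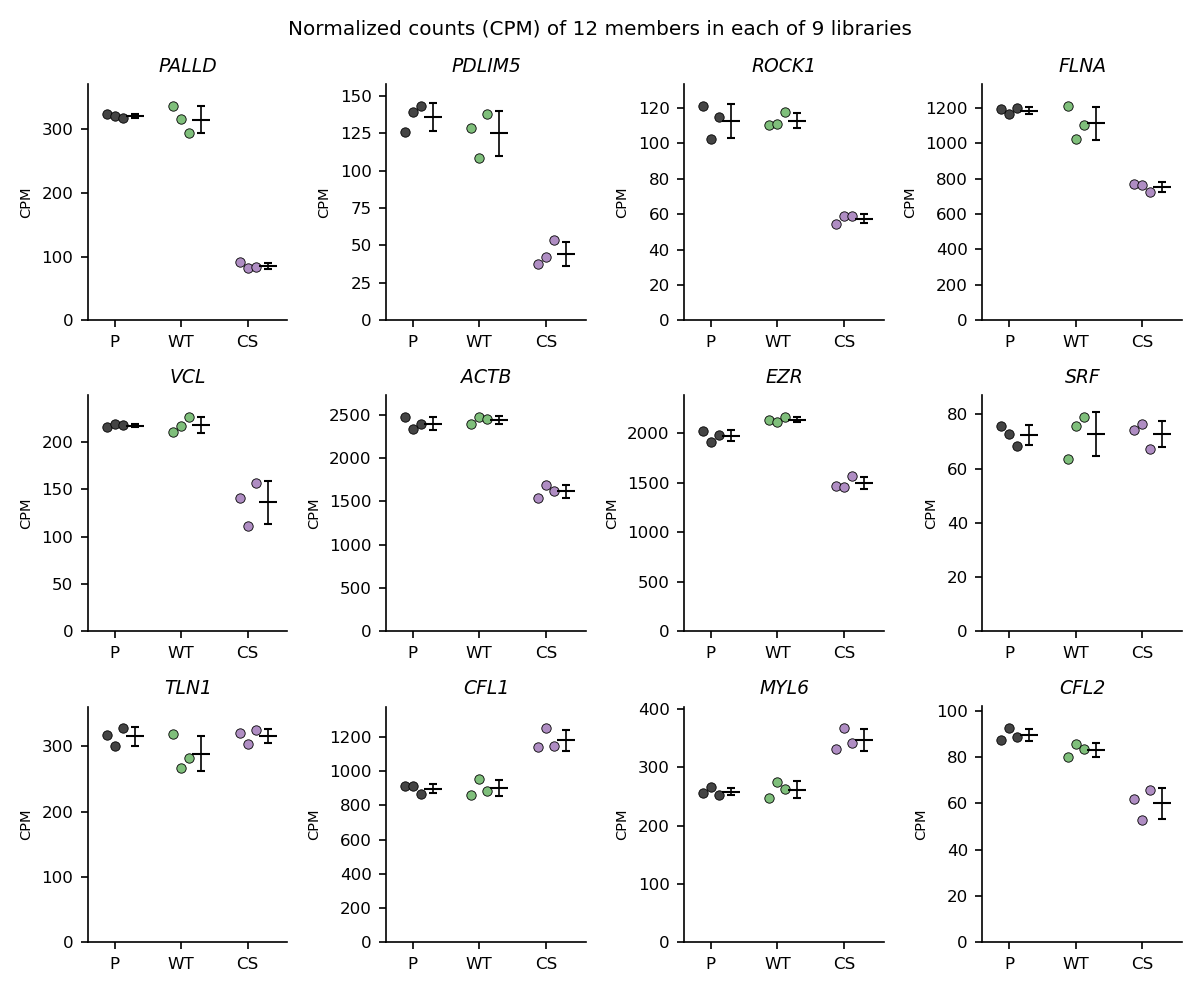
Normalized counts (CPM, y axis from 0) of 12 members in each of the 9 libraries of the parental (P) and both edited lines (WT, CS), with the mean ± SD of 3 libraries to the right of the points. The HUWE1-CS points lie below both controls for PALLD, PDLIM5, ROCK1, FLNA, VCL, ACTB, EZR and CFL2, above them for CFL1 and MYL6, and among them for SRF and TLN1.

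Members were then divided by whether they are known as SRF targets. This division was typed from general knowledge, with earlier results of these data known, and it placed PDLIM5 among the other members. Of the 24 known targets, 10 were lower against HUWE1-P and 1 was higher, with a median log2 fold change of -0.10. Of the 21 other members without PALLD, 12 were lower and 2 higher, with a median of -0.42. Against HUWE1-WT the known targets had 11 lower and 1 higher, with a median of -0.20, and the others 12 lower and 2 higher, with a median of -0.36. There, 8.08% of all genes were lower and 7.42% higher. Read against the boxes printed above, ACTG1, TPM4, FLNA and CNN2 fell in both comparisons, while ACTN1, ROCK2 and SRF did not pass in either. Of the 36 tested members whose windows held no box, 16 were lower and 3 higher. Over the 133 genes of the counts table with a box, 17 (12.8%) were lower and 16 higher, with a median of -0.02. In the same comparison, with HUWE1-P, 8.58% of all genes were lower and 8.46% higher. No test was made of these differences, since the members were chosen with the values known.

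Fold changes in HUWE1-CS cells ran with transcript length over the whole table, and the members have to be read beside that. Spearman's correlation of the log2 fold change against HUWE1-P with the length of the canonical transcript was -0.26 across 10772 genes and -0.49 across the 45 members, a description across genes that share libraries and depth. Below 1500 bases, 0 of 9 members were lower and 3 higher, where all genes gave 3.53% lower and 20.6% higher. Between 1500 and 4000 bases, 10 of 18 were lower and 0 higher, with 7.04% and 8.57% of all genes. From 4000 bases on, 12 of 18 were lower and 0 higher, with 12.5% and 4.65% of all genes. When the trend with length was removed from each library, 23 members were lower and 2 higher against HUWE1-P. How many of all genes were called in that fit was not counted. The median log2 fold change in it was -0.38 for the 45 members and 0.01 for all genes with a known length. Then PALLD was at -1.82, PDLIM5 at -1.52, ACTB at -0.63, MYL6 at 0.20 and CFL1 at 0.27. With the trend removed MYL12B was at 0.12 (adjusted p = 0.129) and ENAH at -0.24 (adjusted p = 0.0161), both no longer called, and PFN1 turned from 0.12 to -0.08.

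**Figure D3:**
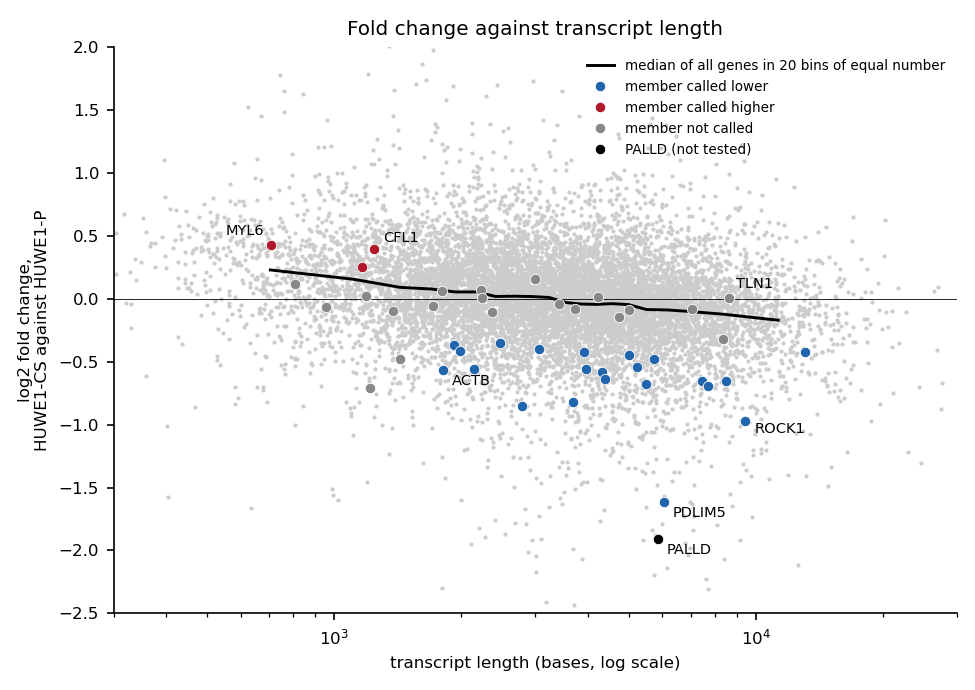
Log2 fold change of HUWE1-CS against HUWE1-P (y axis) by transcript length in bases (x axis, log scale) for all genes (grey dots, those beyond the axes not drawn) and the 46 members (large points, coloured by call), with the median of all genes in bins as a line. The line falls from left to right, and the members called lower lie below it, while the 3 called higher are all shorter than 1500 bases.

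HUWE1-WT cells were compared with HUWE1-P cells to see what editing without the mutation does to the members. None of the 46 was called, PALLD included, beside 0.0617% of all genes. By unadjusted p under 0.05 there were 4 members with edgeR, 2 with DESeq2 and 4 with limma-voom. Over all 11350 genes edgeR gave 629 at that threshold. The smallest adjusted p of the members was 0.74 with edgeR, for MYH9 at -0.15 ± 0.06, 1.00 with DESeq2 and 0.66 with limma-voom. The median log2 fold change was -0.0011 and the values ran from -0.18 in MYH10 to 0.30 in TPM1. The members called lower in both HUWE1-CS comparisons thus each had a HUWE1-WT value between -0.18 and 0.11.

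Further genes of the actin pathway were taken from 4 lists typed from general knowledge, and their counts are to be read against the shares of all genes given above, 8.58% lower and 8.46% higher against HUWE1-P. Against HUWE1-WT these shares were 8.08% and 7.42%, and against both controls 6.22% and 6.01%. Among 17 SRF cofactors and other SRF targets, 5 were lower and 4 higher, with 5 lower and 2 higher against HUWE1-WT. FLNC, a filamin, lay at 151 to 181 CPM in the controls and at 90.2, 86.8 and 87.1 CPM in HUWE1-CS (-1.01 ± 0.09, adjusted p = 9.8e-17). CCN1, a secreted matrix protein, fell from 23.6 to 33.1 CPM in HUWE1-P to 6.81 to 7.55 CPM in HUWE1-CS (-1.89 ± 0.25, adjusted p = 1.2e-09). ACTA2, smooth muscle actin, rose against HUWE1-P (2.01 ± 0.46, adjusted p = 3.8e-04) on 1, 6 and 4 counts in HUWE1-P and 15, 15 and 13 counts in HUWE1-CS, but did not pass against HUWE1-WT (0.80, adjusted p = 0.12). The cofactors MRTFA and MRTFB were at -0.04 ± 0.18 and -0.21 ± 0.13 and did not pass.

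In the Arp2/3 and WAVE complexes, which nucleate branched filaments, 1 of 20 genes was lower and 4 were higher, and 1 and 2 of them were so against both controls. CYFIP2, a WAVE subunit, rose from 58.9 to 64.6 CPM in HUWE1-P to 148, 141 and 162 CPM in HUWE1-CS (1.30 ± 0.10, adjusted p = 1.1e-19), and ACTR3, a core Arp2/3 subunit, fell by 0.32 (adjusted p = 2.7e-04). Of 21 capping, severing and bundling genes 4 were lower and 3 higher, each of them against both controls, with SPTBN1, a spectrin, at -0.51 ± 0.08 (adjusted p = 7.3e-08) and GSN, gelsolin, at 0.75 ± 0.12 (adjusted p = 1.3e-07). Of 20 adhesion kinases and adaptors 3 were lower and 3 higher against HUWE1-P, and 3 were lower and 0 higher against both controls. There FERMT2, or kindlin-2, which activates integrins with talin, was at -0.95 ± 0.16 (adjusted p = 6.4e-07), TNS1, a tensin, at -1.23 ± 0.27 (adjusted p = 1.5e-04) and BCAR1, an adaptor of the focal adhesion kinase, at 0.39 ± 0.12 (adjusted p = 0.0071), which did not pass against HUWE1-WT (0.19, adjusted p = 0.23). MYOT and MYPN, the relatives of palladin, were not analysed here.

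**Figure D4:**
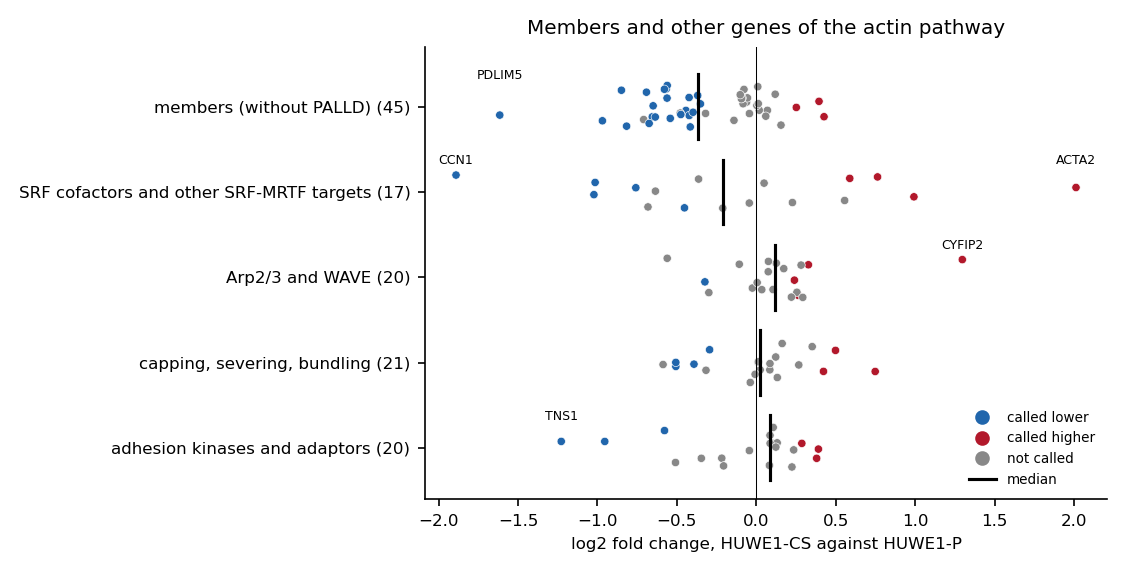
Log2 fold change of HUWE1-CS against HUWE1-P (x axis) for the 45 tested members and 4 other lists of the actin pathway (y axis, number of genes in brackets), one point per gene, coloured by call, with the median of each list as a black bar. The median of the members is -0.37 and that of the Arp2/3 and WAVE genes 0.11, and CCN1 and ACTA2 are the extremes at -1.89 and 2.01.

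PALLD and PDLIM5 both lie on chromosome 4, so their neighbours were read. Of the 10 nearest genes of the table to PALLD, which lay up to 2999 kb away, 1 was lower and 1 higher, with a median log2 fold change of -0.08. The lower one was DDX60L, whose span overlaps that of PALLD (-1.07). Around PDLIM5 3 of 10 were lower and 1 higher, with a median of 0.00. Only SMARCAD1, 160.6 kb away and not called (0.01), was close to PDLIM5, and its other neighbours lay 3593 to 5228 kb away. Over all 376 genes placed on the chromosome 41 were lower and 24 higher, with a median of -0.03. Exons of 10 members overlap another annotated gene over at least 5% of their bases, among them RHOA at 34.5%, PXN at 33.8% with PXN-AS1 on the other strand, ACTN4 at 17.4%, CNN2 at 15.7%, MYL6 at 12.6% with MYL6B and CFL1 at 9.16%. The overlaps of RHOA and MYL6 lie on the same strand, where strand cannot separate the reads. Those of ACTN4, CNN2 and CFL1 lie on the other strand. For RHOA, PXN, ACTN4, CNN2 and CFL1 the overlapping genes were not in the counts table, while MYL6B was. Overlaps were read from GENCODE, which need not be the annotation used in counting. Whether strand was used in counting is not given in the sources used here, so the counts of all these genes are uncertain. For PALLD the overlap was 1.69%, with CBR4.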

How the data were processed

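Polyadenylated RNA was sequenced with single-end reads. The authors mapped reads to hg19 with STAR 2.5.4 and deposited raw counts per gene for 9 libraries; bcl2fastq 2.20 and edgeR 3.26.8 are also in the submitters' processing notes. The counting tool, annotation, strand setting and filter on low genes are not given in the sources used here. Files with the authors' own comparisons (log2 fold change, mean log2 CPM, F, p and FDR) were not used. Lines and replicates followed the sample labels.

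Counts were analysed with edgeR 4.0.16 (R 4.3.3), using TMM, glmQLFit with the older estimator (legacy) and glmQLFTest, line as the only term and all 9 libraries. filterByExpr kept all 11350 genes; 147 lack a symbol (0.505% of counts). Calls needed adjusted p and p of at most 0.01. SE is the log2 fold change over the square root of F. At 3 libraries per line the common biological coefficient of variation was 4.77%. Alternatives included DESeq2 1.42.0 and limma 3.58.1. Gene positions and canonical transcripts came from GENCODE on GRCh37, matched by Entrez identifier through RefSeq or else by symbol, and promoters from RefSeq. The procedure was tested on data simulated as independent libraries. These data held no differences between clones and no trend with length, so the simulation does not bear on either. Members and lists were chosen with earlier results of these data known. Named were PALLD, SRF, members called against both controls, and per role the member with the highest CPM and the smallest p; in other lists the smallest p and the called extremes. Any member may be given with its level. One further gene list is not reported here.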

Additional observations from a re-analysis of the deposited data

How the results depend on the processing

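Over 21 alternatives, 22 to 25 of the 45 members were lower and 2 to 3 higher against HUWE1-P, 20 to 25 lower and 3 to 4 higher against HUWE1-WT, and 0 of 46 were called between the controls. Leaving out each library in turn gave 22 to 24 lower against HUWE1-P and 20 to 24 against HUWE1-WT. Shares of all genes called were not counted under the alternatives. The median of the members between the controls, -0.0011, ran from -0.0262 to 0.0183 with 1 library left out. Deviations from the line mean had correlations of -0.020 to 0.058 between same-numbered libraries of different lines. Between differently numbered ones they were -0.065 to 0.033. Sampling noise also holds such correlations near 0, so they cannot tell whether the numbers pair libraries. With the replicate number as a block 23 members were lower against HUWE1-P and 3 higher. Over the 45 members and both HUWE1-CS comparisons, 16 calls were lost and 23 gained under single alternatives at the same threshold. Losses touched ENAH, MYL12B, CFL2, CNN3, MYL9 and TPM1, and gains PDLIM1, ROCK2, TPM1, TLN1 and TPM3. Beside those given above, MYL12B (adjusted p = 0.123) and ENAH (adjusted p = 0.0151) against HUWE1-P were also lost with the length trend removed together with the block, and MYL12B with DESeq2. Against HUWE1-WT, DESeq2 lost CNN3 (adjusted p = 0.0222) and CFL2 (adjusted p = 0.0145), and removal of the length trend lost MYL12B (0.19). TLN1 was called higher there with the trend removed (0.22, adjusted p = 0.0043) and TPM3 lower with library totals (-0.20, adjusted p = 0.0073). PDLIM1 was called lower in both comparisons with library totals, the block, the trend removed, or block and trend removal together. Against HUWE1-WT it was also called with edgeR's newer estimator, a robust fit and a fit of only the compared lines (adjusted p = 0.0099, 0.0089 and 0.0093). TPM1 with the trend removed (adjusted p = 0.0025) and ROCK2 with library totals (adjusted p = 0.0089) were called lower against HUWE1-P. PALLD moved beyond the replicate spread with the trend removed, to -1.82 with or without the block. Among the 30 members named by rule, 25 of 1220 values changed sign, all of genes without a call in that comparison. With the length trend removed, without and with the block, TPM3 against HUWE1-P was at 0.0359 and 0.0365, PFN1 at -0.0785 and -0.079 against HUWE1-P and at -0.0818 and -0.082 against HUWE1-WT, and SRF against HUWE1-WT at 0.0426 and 0.0431. With library totals TLN1 was at -0.0207 and SRF at -0.0121 against HUWE1-P. SRF against HUWE1-WT was at 0.0019 with DESeq2, 0.0017 with RLE size factors and 0.0 with limma-voom. With 1 library left out TLN1 ran from -0.0311 to 0.0384 and SRF from -0.031 to 0.0727 against HUWE1-P, and SRF from -0.09 to 0.0567 against HUWE1-WT and from -0.0451 to 0.1018 between the controls. The cause was not tested. The restriction of the background to genes of at least 100 CPM was chosen after seeing the data. At this depth, members of few counts such as TPM1 and MYL9 carry wide errors.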
